A study of Homo sapiens with 6 samples.

Results

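The family of miR-130, miR-301 and miR-454 was examined by sequencing small RNA from U2OS cells, a human line established from an osteosarcoma. The 9 members were chosen by name from the table of mature miRNAs. They comprise 5 main arms (hsa-miR-130a-3p, hsa-miR-130b-3p, hsa-miR-301a-3p, hsa-miR-301b-3p and hsa-miR-454-3p) and 4 passenger arms (hsa-miR-130b-5p, hsa-miR-301a-5p, hsa-miR-301b-5p and hsa-miR-454-5p). All 9 were among the 1155 miRNA rows, so 0 members were absent. Of the 6 libraries, 3 carried the genotype label LINC00673 and 3 the label NC. The design text contrasts wild-type cells with a stable shRNA line, and LINC00673 is a long non-coding RNA. Libraries labelled LINC00673 were therefore taken as the shRNA line and NC as the cells it was compared with. The sample titles were Lv_Lin and Lv_NC with a replicate number, so both groups share the prefix Lv, which the titles do not explain. The labels do not say whether NC cells carried a control construct, whether either line was 1 clone, or whether replicates came from separate cultures. The p-values therefore measure the spread between these libraries, which may be technical. LINC00673 itself was not a row of the table, so its depletion was not checked here.

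The comparison asked how depletion of LINC00673 alters expression in osteosarcoma cells, here for 1 group of miRNAs that share a seed. The seed is the stretch near the 5′ end of a mature miRNA that pairs with target transcripts, and miRNAs with the same seed are predicted to share many targets. PPARG, a nuclear receptor, is a known target of miR-130. A hairpin precursor is cut into a 5p and a 3p arm, and in this family the 3p arm is the main product while the 5p arm is mostly discarded.

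Mature sequences from RefSeq (GRCh38.p14) were matched for 7 of the 9 members. The 4 main arms below are shown because they carry the comparison, with the seed (bases 2 to 8) in capitals, 5′ to 3′.
miR-301b-3p: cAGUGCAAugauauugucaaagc
miR-130b-3p: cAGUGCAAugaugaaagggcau
miR-301a-3p: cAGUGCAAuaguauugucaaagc
miR-454-3p: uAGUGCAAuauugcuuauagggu
These 4 had 1 seed and were the rows with that seed among the 1017 rows with a RefSeq sequence. The seed of miR-130a-3p was not read here, since no sequence was matched for it. The arms miR-301a-3p and miR-301b-3p were identical at 21 of 23 positions and differed by A10G and G11A, counted from the 5′ end with the miR-301a-3p base first. How reads matching both arms were assigned is not stated in the labels, so the split between them is uncertain. No other row of the table had the same values as a member in all 6 libraries. From base 13 on, miR-130b-3p departed from its neighbour miR-301b-3p, with which it shared the first 12 bases.

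The family comes from 3 places in the genome (GENCODE release 29, GRCh38). On chromosome 22, MIR301B (21652981 to 21653058) and MIR130B (21653304 to 21653385) lie 245 bp apart on the plus strand within the non-coding transcript AP000553.1, MIR301B in its intron and MIR130B in an exon. On chromosome 17, MIR301A (59151136 to 59151221) and MIR454 (59137758 to 59137872) lie 13263 bp apart on the minus strand, both in introns of SKA2, which encodes a subunit of a spindle and kinetochore complex. On chromosome 11, MIR130A (57641198 to 57641286) lies in an intron of the non-coding AP000662.1.

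Levels are in CPM (reads scaled to a common total), and the reads behind each value were recovered from the table. Over all listed miRNAs the libraries held 265883 to 543144 reads in LINC00673 and 211242 to 331387 in NC. Counting intervals below cover counting error only. LINC00673 replicates 2 and 3 were the closest pair of libraries (chi-square per degree of freedom 2.73 over 330 miRNAs, against 12.6 to 73.4 for the other 14 pairs), yet they differed by more than sampling noise (chi-square test of the reads, p = 4.27e-54). NC replicates 1 and 3 stood at 55.9, inside the 19.8 to 73.4 of pairs across the groups. Since adapters ligate to some sequences more readily than to others, a ratio between miRNAs is not a molar ratio, but it can be followed between libraries.

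In the chromosome 22 cluster, miR-301b-3p was lower in all LINC00673 libraries, at 0.432 of its mean NC level, while its neighbour miR-130b-3p overlapped between the groups. The level of hsa-miR-301b-3p was 78.89, 60.62 and 57.69 CPM in LINC00673 replicates 1, 2 and 3 and 155.18, 131.64 and 169.17 CPM in NC replicates 1, 2 and 3. Every LINC00673 library was below every NC library. The group levels were 65.7 ± 11.5 against 152 ± 18.97 CPM (SD, n = 3 each). The log2 difference was -1.20 with a standard error of 0.28 and a 95% interval of -1.77 to -0.63 (limma adjusted p = 0.0571, not past the threshold of 0.05). These values rest on 30 to 75 reads per library. At that depth the exact Poisson interval of the highest LINC00673 library, 53.2 to 113 CPM, overlapped that of the lowest NC library, 94.5 to 179 CPM. On the recovered reads miR-301b-3p fell in both count models (edgeR log2 difference -1.14, adjusted p = 0.0108, and DESeq2 -1.24, adjusted p = 0.00594). With any 1 of 6 libraries left out, it passed limma in the fit without NC replicate 3 (adjusted p = 0.0432) and otherwise had an adjusted p of 0.147 to 0.579. It no longer passed edgeR when LINC00673 replicate 1, 2 or 3 or NC replicate 1 was dropped (adjusted p = 0.319, 0.222, 0.493 and 0.0567). It no longer passed DESeq2 when LINC00673 replicate 2 or 3 or NC replicate 1 or 2 was dropped (adjusted p = 0.999, 0.996, 0.22 and 0.12). The DESeq2 log2 difference in these fits was -1.15, -1.14, -1.20 and -1.36, in the same order. An adjusted p also depends on the other miRNAs of a fit, so a lost call need not mean a smaller difference.

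The level of hsa-miR-130b-3p was 386.54, 476.86 and 473.34 CPM in LINC00673 and 595.88, 526.57 and 433.07 CPM in NC replicates 1 to 3. NC replicate 3 fell between LINC00673 replicates 1 and 3. The groups were at 446 ± 51.2 and 519 ± 81.7 CPM, and the log2 difference of -0.21 had a 95% interval of -0.63 to 0.21 (limma adjusted p = 0.809). The summed level of the 2 main arms, which includes miR-301b-3p, was 511 ± 39.9 against 671 ± 75.2 CPM, without overlap. Most of this sum was miR-130b-3p, whose own groups overlapped, and no background was computed for the sum. For this sum and those below no p is given, since the members were chosen with earlier results of these data known.

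In the SKA2 locus, miR-301a-3p was lower in all LINC00673 libraries, at 0.590 of its mean NC level, while its neighbour miR-454-3p overlapped between the groups. The level of hsa-miR-301a-3p was 573.23, 404.12 and 426.14 CPM in LINC00673 and 943.47, 683.9 and 751.1 CPM in NC replicates 1 to 3. The highest LINC00673 library, replicate 1, was below the lowest NC library, replicate 2. Group levels were 468 ± 91.9 against 793 ± 135 CPM, with 213 to 456 reads per library. The log2 difference of -0.76 had a standard error of 0.20 and a 95% interval of -1.19 to -0.34 (limma adjusted p = 0.0943, not past the threshold). DESeq2 called miR-301a-3p lower (adjusted p = 0.0341) and edgeR did not (adjusted p = 0.058). Dropping LINC00673 replicate 2 or 3 or NC replicate 1 or 2 ended the DESeq2 call (adjusted p = 0.999, 0.996, 0.593 and 0.146), while edgeR passed it without NC replicate 2 or 3 (adjusted p = 0.026 and 0.0329). In the DESeq2 fits that lost the call, the log2 difference was -0.65, -0.70, -0.60 and -0.91, in the same order, against -0.78 with all libraries. Without NC replicate 2 the unadjusted DESeq2 p was 0.000797, against 0.00176 with all libraries, so that lost call was not a weaker difference.

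For hsa-miR-454-3p, the most abundant member, the values were 4901.42, 3351.52 and 3544.16 CPM in LINC00673 and 3151.11, 3079.17 and 4530.28 CPM in NC replicates 1 to 3. In each group 1 library stood well above the other 2, LINC00673 replicate 1 and NC replicate 3, and the ranges overlapped. The groups were at 3932 ± 845 and 3587 ± 818 CPM (log2 difference 0.14, 95% interval -0.24 to 0.51, limma adjusted p = 0.881), and without LINC00673 replicate 1 the difference was -0.034. Because miR-454-3p outweighed its neighbour, the summed main arms of this locus, 4400 ± 937 against 4380 ± 798 CPM, overlapped between the groups.

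The single-gene member hsa-miR-130a-3p was at 1488.31, 1572.04 and 1652.11 CPM in LINC00673 and at 2306.95, 2026.02 and 1502.2 CPM in NC replicates 1 to 3. NC replicates 1 and 2 lay above all LINC00673 libraries and NC replicate 3 lay among them. The groups were at 1571 ± 81.9 and 1945 ± 408 CPM (log2 difference -0.29, 95% interval -0.66 to 0.08, limma adjusted p = 0.607). Without NC replicate 3 the difference was -0.46 (limma adjusted p = 0.102).

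**Figure D1:**
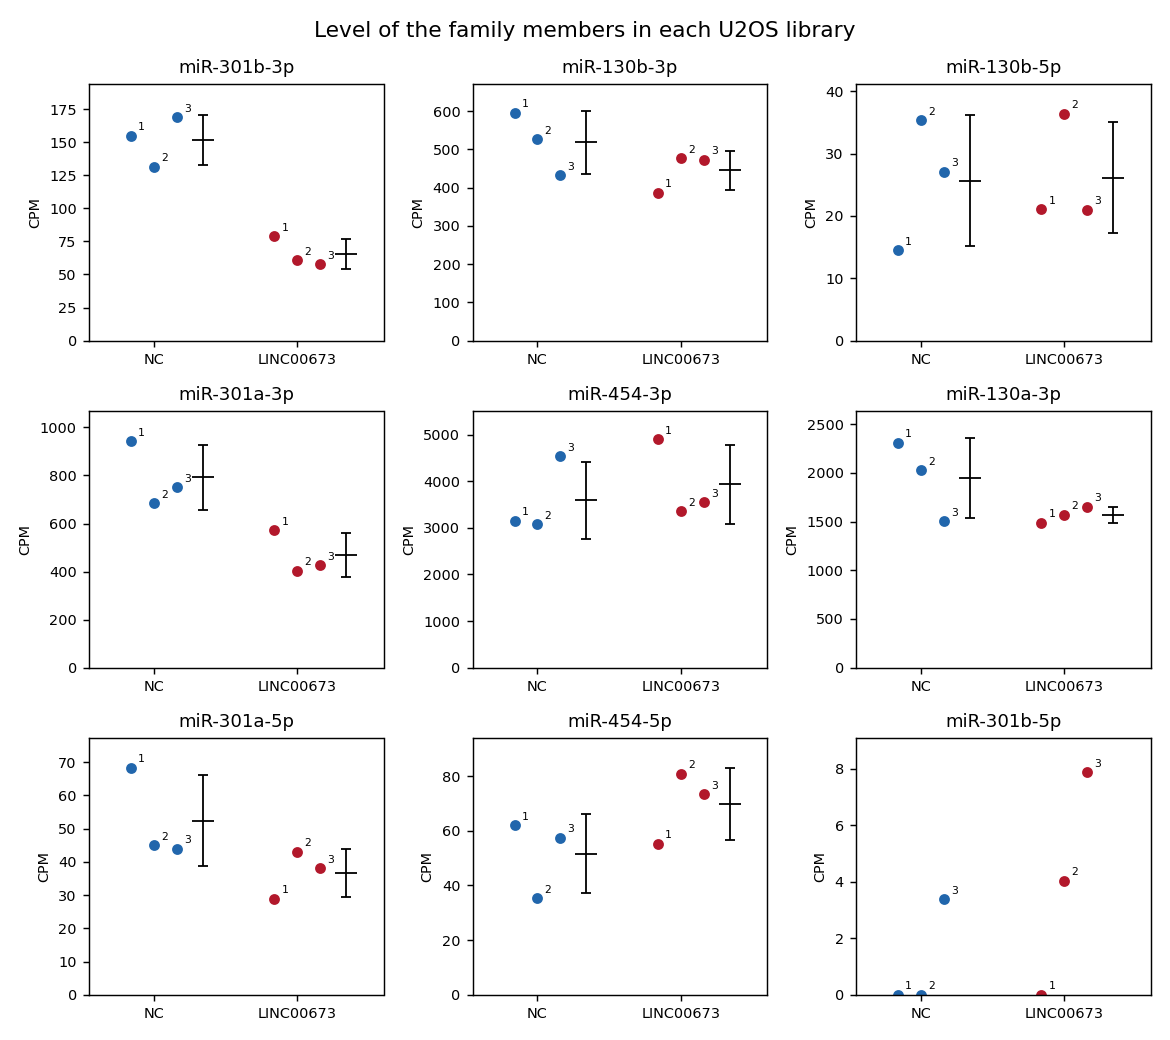
Level of each family member in CPM (y axes, each from 0) in the 3 NC and 3 LINC00673 libraries, numbered by replicate. Black marks give the group mean and SD (none for miR-301b-5p, which was at 0 in some libraries). The groups are apart for miR-301b-3p, miR-301a-3p and miR-301a-5p and overlap for the other 6 members.

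Ordered by mean level over the 6 libraries, the main arms ran from miR-454-3p (3760 CPM) through miR-130a-3p (1758 CPM), miR-301a-3p (630 CPM) and miR-130b-3p (482 CPM) to miR-301b-3p (109 CPM). The order of miR-301a-3p and miR-130b-3p depended on the group. In NC, miR-301a-3p was the higher of the 2 in every library, whereas in LINC00673 replicates 2 and 3 it was the lower. For the other neighbours in this order, the ranges over the 6 libraries did not overlap. Summed over the 5 main arms, the family had 6482 ± 832 CPM in LINC00673 against 6995 ± 489 CPM in NC, with overlapping ranges.

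Limma on log2(CPM + 1) passed 0 of the 9 members as higher and 0 as lower, against 0.247% and 0% of the 810 miRNAs tested. At an unadjusted p under 0.05, 2 members were lower, miR-301b-3p and miR-301a-3p, against 4.44% of all miRNAs tested. Among the members edgeR called 1 lower (0.864% of all miRNAs tested) and DESeq2 called 2 lower (1.23%), and neither called any higher (1.85% and 0.617%). DESeq2 gave no adjusted p to 3 of the 9 members, and rows without one count among the 810 but could not be called. The DESeq2 shares among rows with an adjusted p are therefore higher than those printed, and were not computed. In 3 members all values of the LINC00673 group were under all values of the NC group (7.65% of all miRNAs tested), and in 0 members over them (7.78%). The log2 difference was below 0 in 5 of 9 members, against 46.8% of all miRNAs tested, with a median of -0.21 against 0.06. All 9 members passed the filter of 1 CPM on the mean, and 8 also reached 10 CPM. When libraries were rescaled by TMM (trimmed mean of M-values), the median of all miRNAs moved up by 0.12 on the log2 scale. Relative to that median, miR-301b-3p was at -1.26 as deposited and -1.22 after TMM, and miR-301a-3p at -0.82 and -0.78. After TMM the adjusted p of miR-301b-3p was 0.0456 in limma, past the threshold.

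**Figure D2:**
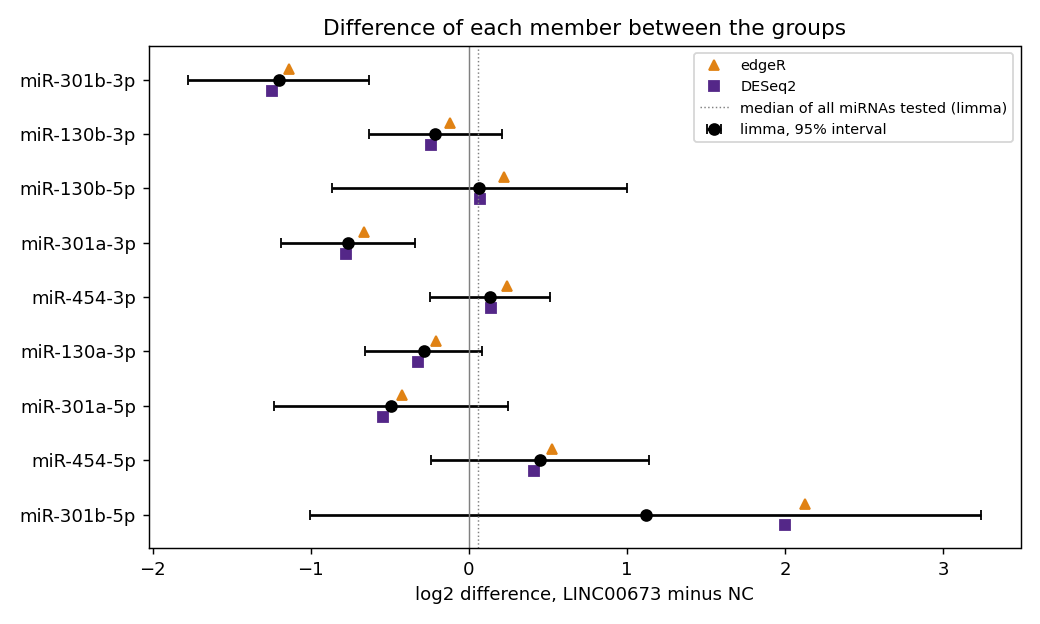
Log2 difference, LINC00673 minus NC (x axis), of each member (rows), by limma with its 95% interval (black), edgeR (triangles) and DESeq2 (squares), from 3 libraries a group. The limma interval lies below 0 for miR-301b-3p (-1.77 to -0.63) and miR-301a-3p (-1.19 to -0.34) and includes 0 for the other 7.

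**Figure D3:**
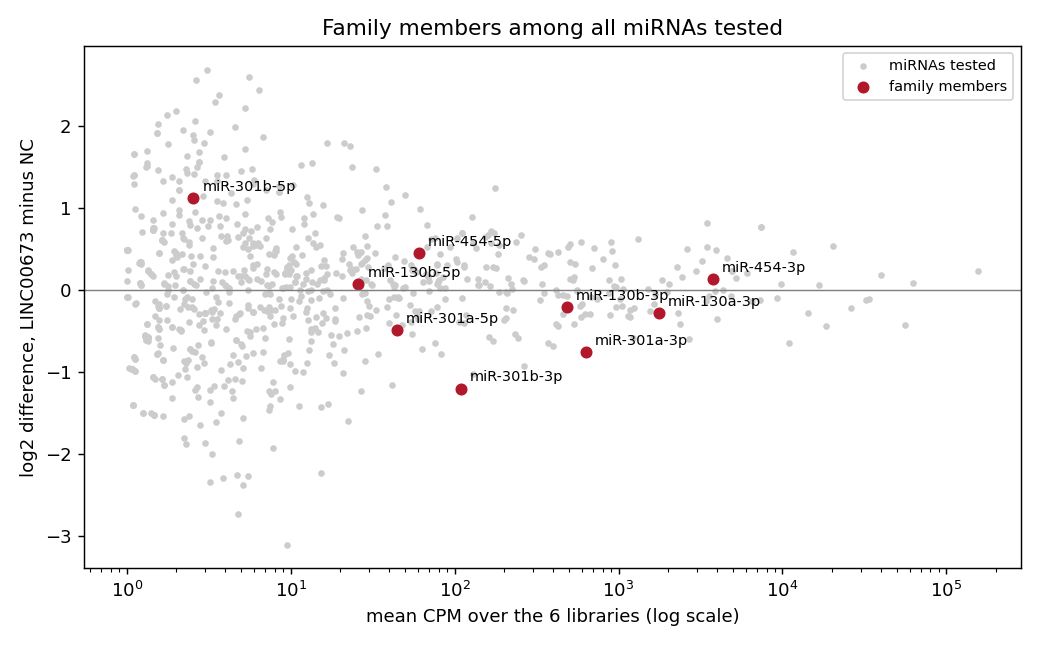
Log2 difference, LINC00673 minus NC (y axis), against the mean CPM over the 6 libraries (x axis, log scale) for the 810 miRNAs tested (grey), with the 9 members in red. The spread of differences widens at low levels, where miR-301b-5p lies, and miR-301b-3p sits near the lower edge at its level.

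Ratios within a library do not depend on its total, and they parted 2 pairs of neighbours. The ratio of miR-454-3p to miR-301a-3p was 8.55, 8.29 and 8.32 in LINC00673 and 3.34, 4.50 and 6.03 in NC replicates 1 to 3. The LINC00673 libraries lay close together above a wide NC range. The ratio of miR-130b-3p to miR-301b-3p was 4.90, 7.87 and 8.20 in LINC00673 against 3.84, 4.00 and 2.56 in NC, again without overlap, with LINC00673 replicate 1 nearest to NC. Such separation was frequent. Of 63 pairs of arms from neighbouring miRNA genes (same strand, starts within 20000 bp, mean of 100 CPM or more), 42.9% had ratios that did not overlap between the groups. By size of the log2 difference between the groups, miR-130b-3p with miR-301b-3p ranked 6 and miR-301a-3p with miR-454-3p ranked 8 of the 63. Many arms occur in more than 1 pair, so the pairs are not independent. The ratio of miR-301a-3p to miR-301b-3p, from different chromosomes, was 6.67 to 7.39 in LINC00673 and 4.44 to 6.08 in NC. No background was computed for pairs on different chromosomes. The ratio of miR-130a-3p to miR-130b-3p overlapped, at 3.55 ± 0.281 and 3.73 ± 0.226.

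**Figure D4:**
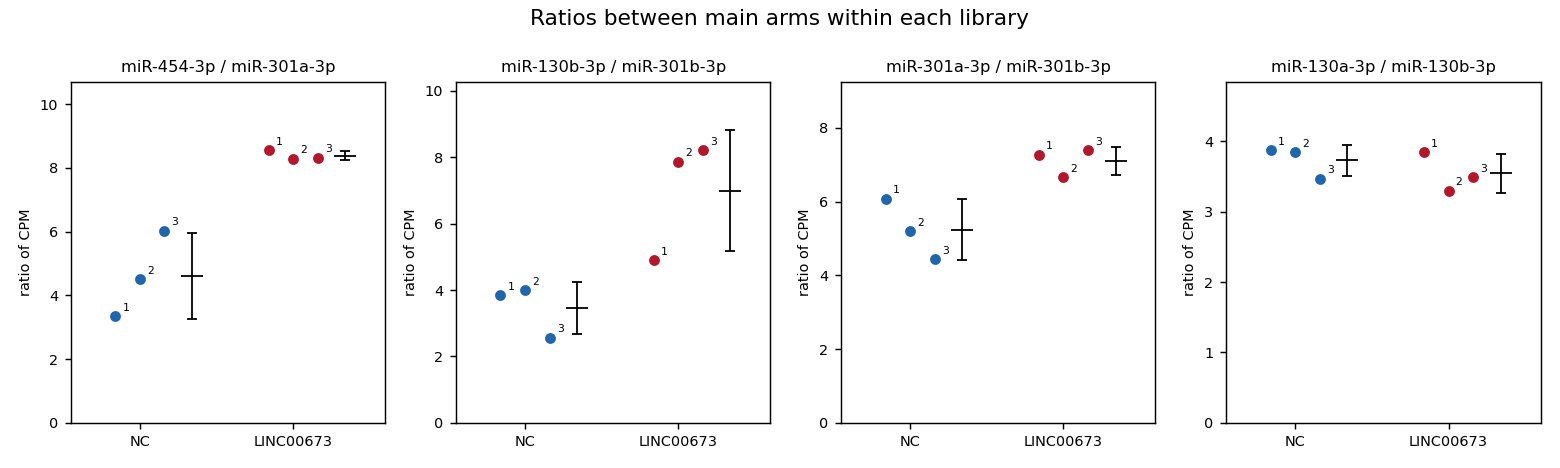
Ratio of CPM between pairs of main arms (y axes, from 0) in each library, numbered by replicate, with the group mean and SD in black (n = 3 each). The first 3 ratios do not overlap between NC and LINC00673, and the last, miR-130a-3p over miR-130b-3p, does.

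Within the summed main arms, miR-301b-3p held 1.06%, 1.03% and 0.938% in LINC00673 replicates 1 to 3 and 2.17%, 2.04% and 2.29% in NC replicates 1 to 3. The groups were narrow and apart, although the Wilson 95% intervals reached from 0.699% to 1.51% in LINC00673 and from 1.51% to 3.01% in NC. The share of miR-301a-3p was 7.18 ± 0.467% against 11.3 ± 1.63%, also without overlap. Both shares restate levels given above, and no background was computed for them. The shares of miR-454-3p, 60.2 ± 4.98% and 51.1 ± 9.10%, and of miR-130a-3p, 24.6 ± 3.92% and 28.0 ± 6.65%, overlapped.

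**Figure D5:**
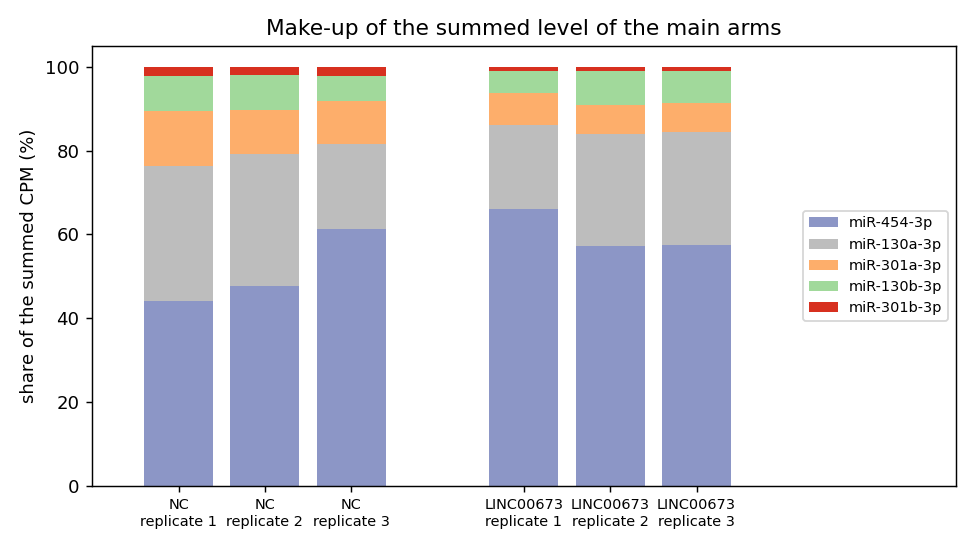
Share of each main arm in the summed CPM of the 5 main arms (y axis, %) in each of the 6 libraries (bars). The miR-301b-3p share is 2.04% to 2.29% in NC and 0.938% to 1.06% in LINC00673, while miR-454-3p takes the largest share in every library.

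The passenger arms were low, and none passed limma, edgeR or DESeq2, which gave no adjusted p for 3 of them (miR-130b-5p, miR-301a-5p and miR-301b-5p). The level of miR-301a-5p was 28.92, 43.11 and 38.02 CPM in LINC00673 and 68.28, 44.95 and 43.98 CPM in NC replicates 1 to 3. The groups did not overlap, though LINC00673 replicate 2 and NC replicate 3 were within 1 CPM of each other. The log2 difference was -0.49 (limma adjusted p = 0.66). The level of miR-454-5p was 55.22, 80.82 and 73.43 CPM in LINC00673 against 62.07, 35.32 and 57.52 CPM in NC (log2 difference 0.45, limma adjusted p = 0.673), with LINC00673 replicate 1 inside the NC range. For miR-130b-5p, at 26.1 ± 8.87 and 25.6 ± 10.5 CPM, the groups overlapped throughout (log2 difference 0.07, limma adjusted p = 0.981).

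The miR-301b-5p arm was close to the limit of detection. It had 0, 3 and 6 reads in LINC00673 and 0, 0 and 1 read in NC replicates 1 to 3, and 3 reads, taken as the floor, equalled 3.93 to 10.15 CPM. No fold is read from these values. As a share of its hairpin's reads, it was 0 of 30 in LINC00673 replicate 1, 0 of 75 in NC replicate 1 and 0 of 41 in NC replicate 2, for which the floor of 3 reads equals 10%, 4% and 7.32% and the Wilson 95% interval reaches 11.4%, 4.87% and 8.57%. Its share was 6.25% of 48 reads in LINC00673 replicate 2 and 12% of 50 in replicate 3. In NC replicate 3 it was 1.96% of 51 reads. The 5p arm held 7.54 ± 2.48% of the miR-301a hairpin in LINC00673 and 6.15 ± 0.609% in NC, and 1.83 ± 0.643% against 1.44 ± 0.430% of the miR-454 hairpin. For miR-130b it was 5.50 ± 1.45% against 4.85 ± 2.15%. All these ranges overlapped between the groups.

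Profiles over the 6 libraries were compared by the root mean square difference of centred log2 values, among miRNAs whose mean reached 10 CPM (361 candidates for each member). The profile most like miR-301b-3p was that of miR-19a-3p, at 0.14, followed by miR-760 and miR-301a-3p at 0.26 each. For miR-301a-3p the nearest were miR-760 (0.08), miR-19a-3p (0.16) and miR-140-5p (0.21). The medians over all candidates were 0.77 and 0.61. Within the family, miR-130a-3p and miR-130b-3p were the closest pair (0.09). Their nearest profiles outside it were miR-28-3p, miR-532-5p and miR-151a-5p (0.06 to 0.08) for miR-130a-3p and miR-99b-3p, miR-192-5p and miR-151a-3p (0.06 to 0.08) for miR-130b-3p. The miR-454-3p profile was nearest to miR-15a-5p (0.13), miR-942-5p and miR-1301-3p (0.16 each). For the passenger arms the nearest were at 0.12 to 0.15 for miR-301a-5p (let-7a-3p, miR-126-3p and miR-218-5p), 0.19 to 0.20 for miR-130b-5p (miR-320b, miR-651-5p and miR-135b-3p) and 0.20 for miR-454-5p (miR-615-3p, miR-744-5p and miR-1296-5p).

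Outside the family, 7 miRNAs had 6 neighbouring letters of the seed within bases 2 to 8. Examples are shown because their seeds are the family seed moved by 1 base in either direction.
miR-19a-3p: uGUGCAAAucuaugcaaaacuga
miR-148a-3p: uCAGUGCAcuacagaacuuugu
Limma passed 0 of these 7 as higher and 0 as lower, with 4 below 0 and a median log2 difference of -0.02 against 0.06 over all miRNAs tested. The level of miR-19a-3p, a product of the miR-17-92 cluster, was 223.51, 164.34 and 163.9 CPM in LINC00673 and 347.59, 317.87 and 378.93 CPM in NC. The groups did not overlap, the log2 difference was -0.93 and limma did not pass it (adjusted p = 0.0571), whereas edgeR (0.0298) and DESeq2 (0.00799) called it lower. Its paralog miR-19b-3p, with the same seed, was at 1040 ± 145 against 1309 ± 120 CPM with overlapping groups (limma adjusted p = 0.4996). Of the miRNAs known to target the DNA methyltransferase DNMT1, miR-148a-3p was at 6190 ± 310 against 6820 ± 411 CPM, miR-148b-3p at 5444 ± 328 against 4940 ± 603 CPM and miR-152-3p at 1955 ± 257 against 1984 ± 224 CPM (limma adjusted p = 0.83, 0.83 and 0.983). The other 2, miR-4671-3p and miR-519a-3p, had means under 10 CPM. In 3 of the 7 the groups did not overlap, miR-19a-3p and miR-148a-3p being lower and miR-4671-3p higher. Over all miRNAs tested, 7.65% were lower and 7.78% higher without overlap.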

How the data were processed

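The authors deposited 1 table of CPM values per mature miRNA and library. The submitters' processing notes name the build hg38, while aligner, counter, miRNA release and filters are not stated there. Per the labels' protocols, TRIzol RNA went into a NEBNext small RNA kit. Whole reads were recovered from the CPM steps of each library (100% of values within 0.1 read). The listed miRNAs held 68.6% to 72.0% of each total.

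Limma 3.58.1 (R 4.3.3) was run on log2(CPM + 1) with an intensity trend, two-sided, with Benjamini-Hochberg adjustment at a threshold of 0.05 over the 810 miRNAs whose mean reached 1 CPM. Fold changes on this scale understate those of low miRNAs. Recovered reads were tested with edgeR 4.0.16 (quasi-likelihood, TMM) and DESeq2 1.42.0. On them edgeR called 15 higher and 7 lower miRNAs, DESeq2 5 and 10, and limma on CPM 2 and 0. The scripts were tested on simulated data with changes larger than the limma differences of the members, which does not measure power for the members.

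The members and lists were chosen with earlier results of these data known. Named were all 9 members, for members whose mean reached 10 CPM the 3 most similar profiles, and related-seed miRNAs that reached 10 CPM (the 2 below that were named after their values were seen). Alternatives changed the pseudocount, filter, scaling, variance prior, block, test and libraries. Leaving out libraries in edgeR and DESeq2, averaging LINC00673 replicates 2 and 3, and the background of neighbouring pairs were chosen after seeing the data.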

Additional observations from a re-analysis of the deposited data

How the results depend on the processing

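Over 18 settings (the added fits aside), the log2 difference was -1.34 to -1.04 for miR-301b-3p, -0.92 to -0.60 for miR-301a-3p, -0.46 to -0.12 for miR-130a-3p and -0.34 to -0.05 for miR-130b-3p. For miR-301b-3p, 8 of the 18 passed the threshold (adjusted p of 0.00594 to 0.579 over all 18), and for miR-301a-3p 2 did (0.0271 to 0.592). With LINC00673 replicates 2 and 3 averaged, the adjusted p was 0.547 and 0.69. With 1 library left out in limma, miR-454-3p ranged from -0.034 to 0.32 and miR-130b-5p from -0.28 to 0.33. For miR-454-3p without LINC00673 replicate 1, edgeR and DESeq2 gave -0.061 and -0.11. For miR-130b-5p they gave -0.11 and -0.23 without LINC00673 replicate 2, and -0.17 and -0.24 without NC replicate 1. The cause of these changes in sign was not tested.

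The number of members called lower, 0 as reported, was 1 with a pseudocount of 5 CPM, TMM, scaling to the listed miRNAs, scaling without the 10 most abundant or edgeR, and 2 with no filter or DESeq2. It ranged from 0 to 1 with 1 library left out in limma and from 0 to 2 in the count models, and no setting called a member higher. Over the whole table, the calls higher and lower, 2 and 0 as reported, were 0 and 0 with a pseudocount of 0.5 CPM, a minimum of 10 CPM, quantile normalization, no variance trend or replicates averaged. They were 3 and 5 with a pseudocount of 5 CPM, 4 and 7 with no filter, 11 and 2 with TMM, 2 and 1 with listed miRNAs, 2 and 3 without the 10 most abundant, 15 and 7 in edgeR and 5 and 10 in DESeq2. Leaving out 1 library gave 0 to 20 higher and 0 to 8 lower in limma, and without NC replicate 3 these were 20 and 8, 31 and 13 in edgeR, and 19 and 14 in DESeq2. Leaving out another library gave 0 to 4 higher and 0 to 4 lower in the count models (0, 1, 3 or 4 lower in those with calls). The summed main arms of the chromosome 22 cluster had a log2 ratio of -0.39, and -0.24 with TMM. Samples shared only a replicate number, with correlations of deviations of 0.03, 0.07 and 0.01 for replicates 1 to 3, and LINC00673 replicate 3 correlated best with NC replicate 1. A replicate block left the calls at 2 and 0, with an adjusted p of 0.0563 for miR-301b-3p and miR-301a-3p. With 30 to 75 reads for miR-301b-3p, depth limits its precision.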
